A study of Medicago truncatula with 24 samples.

Results

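The sequences described here are the 60 small RNAs of exactly 24 nucleotides (nt) among the 427 sequences counted in a small RNA sequencing study of the model legume Medicago truncatula. The rule of choice was length alone, and it was set with earlier results of these data known. The study set cra2 plants, mutant for a receptor kinase (CRA2) that perceives CEP peptides, against the wild type A17. All plants grew in hydroponics on 0.5 mM KNO3 before treatment, and their root systems were divided at 3 weeks between a local compartment and a systemic compartment. The local compartment received 0.05 mM KNO3 (deficit) or 10 mM NH4NO3 (satiety) for 4 days, and the systemic compartment of every plant received no mineral nitrogen. Shoots and, per the series design, distant roots of plants 4 weeks old gave 8 groups of 3 libraries: cra2 shoot deficit, cra2 shoot satiety, A17 shoot deficit, A17 shoot satiety, and the same 4 groups of roots. The questions were whether small RNAs follow the nitrogen supply of another part of the root system, in which organ, and whether they do so in cra2. Nothing in the labels says whether replicates were separate plants, so p-values measure only the spread between these libraries, which may be technical. In bulk tissue, fewer cells of a type and less RNA per cell cannot be told apart. Small RNA counts hold neither the CRA2 transcript nor organ marker transcripts, so genotype and organ labels were not checked by them.

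In plants, small RNAs of this length are typically cut by the Dicer enzyme DCL3 from double-stranded RNA made at transposons and other repeats. They are loaded into Argonaute proteins of the AGO4 group, which favour an adenine at the 5′ end, and guide DNA methylation and silencing of the matching loci. Plants also make some miRNAs of this length, while most plant miRNAs are 21 nt long and often begin with uracil (T in these sequences). The 24-nt sequences have no names in the files, so they are called sR1 to sR60 here in the order of their summed counts. No locus or function is known for them from the sources used here.

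The sequences on which the results turn are printed 5′ to 3′ as the deposited files spell them, with T for U and the 5′ base in capitals. sR1 was the most abundant in shoots and sR2 in roots. sR2, sR5, sR9 and sR26 differed between organs of A17 in their response to nitrogen, and sR8 was higher in roots. sR27 had more counts in cra2 shoots than in A17 shoots, and the limit on its test is given below.
sR1: Aaaagaatactcatacataacatt
sR2: Aggttgtttcttgaagtgcaaggc
sR5: Cgtgacaacacatcattggatgca
sR8: Tgctttaaggatatttgttaagga
sR9: Gaattgattatgtttggatacact
sR26: Aaagtggtgggacatacattgatt
sR27: Gctaaacggaatgagggtagtcat

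Of the 60 sequences 56 had counts, and all 56 were found in both organs. A total of 29 were detected in all 24 libraries. The 4 sequences sR57 to sR60 had no count among 52312029, which allows a level of up to 0.0573 CPM, the counts-per-million scale (3 counts of that total). Counts were concentrated in few sequences. sR1 held 37.0% of the 24063 counts of this length and the top 5 held 61.9%. Summed counts lay between 1 and 9 for 4 sequences and between 10 and 99 for 21. The 4 most abundant had at least 1105 counts each, and the 27 in between had 100 or more. Library totals, which are counts over the listed sequences only, ran from 1494211 to 3919811 in shoots and from 768323 to 1661422 in roots. A level of 3 counts therefore stood for 0.765 to 2.01 CPM in shoots and 1.81 to 3.90 in roots. Intervals and such limits cover counting error only.

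Of the counts over the 427 listed sequences, the 24-nt class made up 0.0460%, against 95.8% for 21 nt, 3.21% for 22 nt, 0.987% for 20 nt and 0.00360% for 23 nt. These shares depend on which sequences were listed, so they do not give the abundance of each length in the tissue. Its low share came with 60 listed sequences, more than the 23 listed at 20 nt. The median listed 24-nt sequence had 111 counts, against 167 at 21 nt and 34 at 22 nt. A single sequence of another length took 79.5% of all counts, so shares of the total depend on it.

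An adenine stood at the 5′ end of 21 of the 60 sequences (35%), and C, G and T at the 5′ end of 13 each (21.7%). At 21 nt, 22.5% of listed sequences began with A and 50.6% with T, and at 22 nt 55.1% began with T. By counts, 64.4% of 24-nt reads began with A, 14.7% with G, 12.9% with T and 8.01% with C, whereas 97.8% of 21-nt reads began with T. The adenine share of 24-nt counts averaged 70.4 ± 4.39% in shoots and 49.1 ± 2.59% in roots (SD, n = 12 libraries each). Without sR1, which begins with A, it was 43.6 ± 2.15% in shoots and 43.1 ± 2.65% in roots. The organ difference in first base thus came with sR1, and the other sequences had nearly equal adenine shares in both organs. Mean G and C content was 41.25% at 24 nt and 43.96% at 21 nt.

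Several 24-nt sequences resembled each other. By an overlap of at least 18 nt with at most 3 mismatches, or a match broken by 1 inserted base, 24 fell into 10 groups and 36 stood alone. The groups held 18.1% of the 24-nt counts. Reads of such near-identical sequences could have been shared out by the counting, of which no source used here gives the method, so their separate values are uncertain. The pairs shown next include members that changed, and a substitution is written with the first sequence's base, the position from its 5′ end and the second sequence's base.
sR16: Aagcattgtggcattgtgattggt
sR18: Aagcattgtggcattgtgattggc
sR12: Gaattgatttatgtttggatacac
sR4: Gattcagatgatagcaacaaagag
sR22: Attcagatgatagcaacaaagagc
sR17: Tgatggagatgatatgaagatgaa
sR30: Tggagatgatatgaagatgaaaaa
sR16 and sR18 differed by T24C alone and took nearly equal counts (303 and 266). sR12 matched 23 nt of sR9 with 1 base inserted. sR22 was sR4 shifted by 1 nt, and it gave 14.0% of the pair's counts in shoots and 11.9% in roots. sR30 was sR17 shifted by 3 nt, and its share of the pair was 22.7% in shoots and 39.9% in roots. sR26 differed by G11A from sR57, which had no counts. Other groups were sR14, sR35 and sR50 (C7T, and A18G in addition in sR50), and the set of sR32, sR33, sR34 and sR42.

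In share of the library total, the 24-nt class was low in every group and showed opposite differences in the 2 organs of A17. In A17 shoots the class took 0.0341, 0.0283 and 0.0371% under deficit, against 0.0443, 0.0459 and 0.0382% under satiety. In A17 roots it took 0.0556, 0.0504 and 0.0587% under deficit, against 0.0340, 0.0330 and 0.0352% under satiety. The libraries of deficit and satiety did not overlap in either A17 organ, with deficit below satiety in shoots and above it in roots. On library totals the median log2 change over all sequences tested was -0.29 in A17 shoots and 0.09 in A17 roots. In A17 roots the 20-nt share did not overlap either (0.698 to 0.888% under deficit and 0.546 to 0.579% under satiety). The shares of 21, 22 and 23 nt overlapped there, and in A17 shoots those of all other lengths from 20 to 23 nt did. Without sR1 the A17 shoot libraries overlapped (0.0181 ± 0.00249% under deficit and 0.0235 ± 0.00327% under satiety), while those of A17 roots did not (0.0510 ± 0.00299% under deficit and 0.0318 ± 0.00236% under satiety; SD, n = 3 each). sR1 made up only 3.28 to 11.1% of the 24-nt counts in A17 roots, so leaving it out could change the root shares little. The sum was not taken without sR2, which had 531 counts under deficit and 184 under satiety in A17 roots. No test was made of the summed shares, because the class was chosen with earlier results known. Each value has an exact 95% binomial interval for counting error, such as 0.0266 to 0.0300% for the lowest A17 shoot library under deficit.

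In cra2 roots the class took 0.0668, 0.0661 and 0.0569% under deficit, against 0.0584, 0.0351 and 0.0417% under satiety, and the libraries overlapped. In cra2 shoots it took 0.0616, 0.134 and 0.0352% under deficit, against 0.0413, 0.0545 and 0.0430% under satiety, also with overlap. Replicate 2 of cra2 shoot deficit stood far above all other libraries, with an exact 95% interval of 0.129 to 0.140%. Without it the group mean was 0.0484%, against 0.0771 ± 0.0514% (SD, n = 3) with it. That group also varied most over all tested sequences, with a median SD of 0.61 in log2 CPM, against 0.29 to 0.31 in the other shoot groups. Its part in the results below was not tested beyond the fits made without it.

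**Figure D1:**
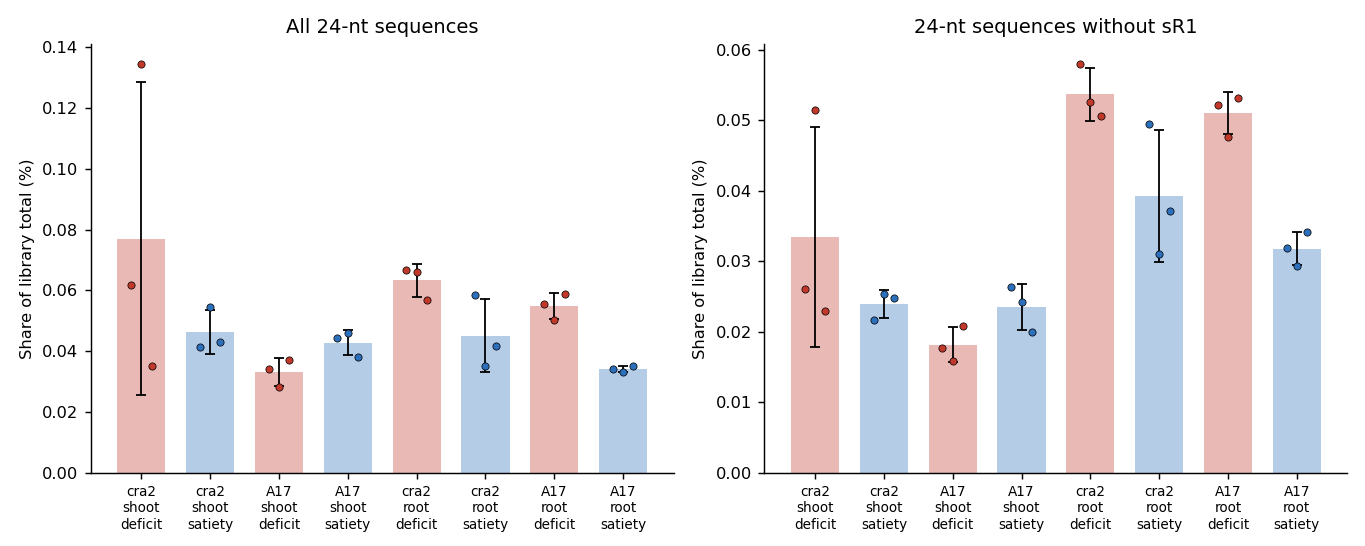
Share of the library total (%) taken by all 24-nt sequences (left) and by those other than sR1 (right) in the 8 groups. Points are libraries, bars are means and error bars are SD (n = 3); in A17 the deficit libraries lie at 0.0283 to 0.0371% in shoots, all below satiety, and at 0.0504 to 0.0587% in roots, all above satiety.

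Over all groups the class took 0.0498 ± 0.0281% in shoots and 0.0493 ± 0.0128% in roots (SD, n = 12 each). sR1 made up 34.8 to 61.8% of the 24-nt counts in shoots and 3.28 to 20.5% in roots, with no overlap of the organs. Without sR1 the class took 0.0247 ± 0.00902% in shoots and 0.0439 ± 0.0104% in roots. On library totals, the median log2 difference of shoots over roots was -0.78 over all 200 sequences tested. Lower shares in shoots were therefore common to the whole table and not particular to this class. A median of 47 sequences was detected per shoot library and 45 per root library. Thinned to the smallest library total, the expected medians were 34.3 in shoots and 41.0 in roots, so the order of the organs turned with depth.

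Levels of single sequences are given as normalised CPM (CPM after TMM scaling in edgeR), scaled among the 12 libraries of an organ unless both organs are compared. Shoots and roots were fitted apart, with 25 of the 60 sequences passing the filter on low counts in shoots and 17 in roots. All 17 were also among the 25. Comparisons of organs used all 24 libraries and 24 of the sequences. Log2 changes are given ± SE, and a sequence was called at a Benjamini-Hochberg adjusted p under 0.05 in edgeR's quasi-likelihood test.

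sR1 stood out by organ. On a scale common to both organs, it lay at 164 to 645 normalised CPM in shoots (median 269) and at 8.82 to 96.2 in roots (median 37.0). The 12 shoot libraries were all above the 12 root libraries, a log2 difference of 2.99 ± 0.22 (edgeR adjusted p = 2.09e-11). sR8 showed the opposite pattern, with 2.37 to 13.0 normalised CPM in shoots (median 7.39) and 15.7 to 46.8 in roots (median 23.96). The organs did not overlap for sR8 either, and the difference was -1.70 ± 0.20 (edgeR adjusted p = 5.71e-08).

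In all, 6 of 24 sequences were called between shoots and roots (4 higher and 2 lower in shoots), whereas 67.5% of all 200 sequences tested were called. By direction, 33.5% of all were called higher and 34% lower in shoots. The share of 24-nt sequences called was thus below that of the whole table, and their median change was -0.13, against -0.05 over all. The 2 sequences without overlap between organs, sR1 and sR8, compare with 20.5% of all sequences. sR15 averaged 8.46 ± 3.38 normalised CPM in shoots and 3.92 ± 1.51 in roots (SD, n = 12 each), a log2 difference of 1.09 ± 0.21 (edgeR adjusted p = 7.5e-05). sR17 averaged 7.66 ± 1.59 in shoots and 4.17 ± 1.16 in roots, a difference of 0.87 ± 0.19 (edgeR adjusted p = 0.000221). The libraries of the organs overlapped for both. A fit without the filter also called 3 of the 32 24-nt sequences kept out by it. sR23 and sR28 were higher in shoots, by 1.02 ± 0.32 and 1.25 ± 0.38 (edgeR adjusted p = 0.00746 and 0.00612). sR38 was lower, by -1.68 ± 0.56 (edgeR adjusted p = 0.0118). Over all 343 sequences that fit called 80 higher and 70 lower.

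Smaller organ differences were called for sR4 and sR10. sR4 averaged 26.4 ± 4.81 normalised CPM in shoots and 19.1 ± 3.87 in roots, a difference of 0.48 ± 0.14 (edgeR adjusted p = 0.00544). Library totals in place of TMM scaling moved the median of all sequences to -0.78 and sR4 with it to -0.27. Relative to that median sR4 lay 0.52 above it with TMM and 0.51 above it with library totals, sR15 1.14 and 1.12, and sR17 0.92 and 0.91. None of the 3 was called with library totals (edgeR adjusted p = 0.132, 0.163 and 0.596). sR10 averaged 9.62 ± 2.29 in shoots and 13.5 ± 4.69 in roots, a difference of -0.44 ± 0.16 (edgeR adjusted p = 0.0205). The call of sR10 was lost without cra2 root deficit replicate 1, cra2 root satiety replicate 3 or cra2 shoot deficit replicate 2 (edgeR adjusted p = 0.0591, 0.0671 and 0.0536). In those fits the difference was -0.37 to -0.40. The sR10 call was also lost with DESeq2 (adjusted p = 0.0578) and without the filter (edgeR adjusted p = 0.0754).

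**Figure D2:**
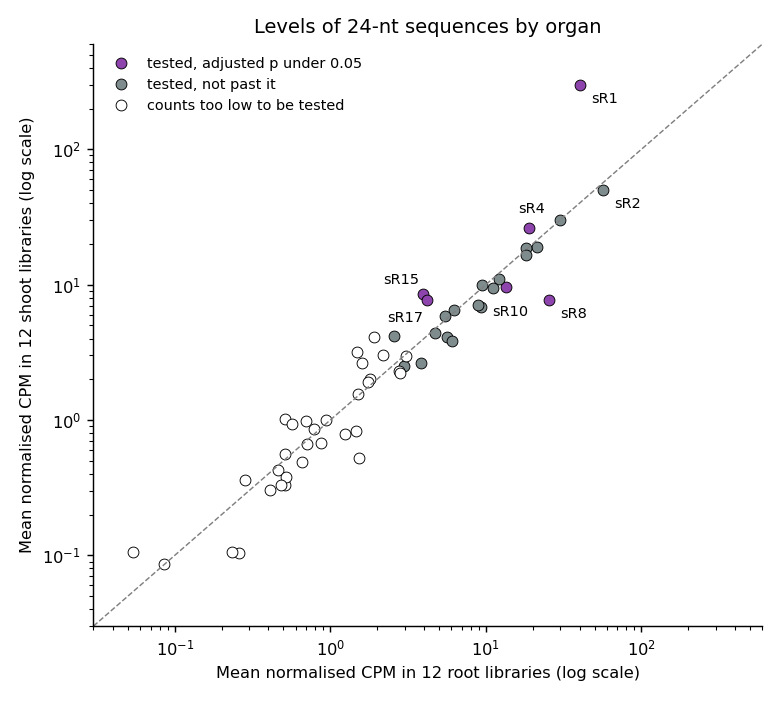
Mean normalised CPM of the 56 24-nt sequences with counts in 12 shoot libraries (vertical, log scale) against 12 root libraries (horizontal, log scale), scaled over both organs; the dashed line marks equal levels. sR1 lies far above the line and sR8 below it, while most other sequences lie near it.

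The sequences with the highest levels in each organ were largely the same. The order by mean share of the total was sR1, sR2, sR3, sR4 and sR5 in shoots and sR2, sR1, sR3, sR8 and sR5 in roots. sR8 had rank 14 in shoots and sR4 rank 6 in roots. On the common scale sR2 averaged 50.1 ± 12.4 normalised CPM in shoots and 56.9 ± 28.6 in roots. sR3 averaged 29.99 ± 8.95 in shoots and 30.01 ± 9.69 in roots, and sR5 18.9 ± 9.06 in shoots and 21.3 ± 10.3 in roots. The ranges of neighbours in the order overlapped across libraries, apart from sR1 in shoots, whose lowest library lay above the highest sR2 library. Compared within each library, sR2 had more counts than sR3 in every shoot and every root library.

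In distant A17 roots, 3 of the 17 tested 24-nt sequences were higher under local deficit than under satiety and none was lower by the test. Over all 168 sequences tested there, 31% were called, 14.9% higher and 16.1% lower. The 3 of 17 called higher are near the whole-table share of that direction. sR2 stood at 128, 146 and 90.5 normalised CPM in A17 roots under deficit, against 44.6, 36.4 and 37.7 under satiety. Every deficit library was above every satiety library, and the log2 change was 1.62 ± 0.27 (edgeR adjusted p = 0.000887, the smallest of all sequences in this comparison). No fit with a single library removed ended the call (6 fits), nor did any of 6 other settings.

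sR5 stood at 43.8, 30.6 and 29.7 normalised CPM in A17 roots under deficit, against 10.99, 23.4 and 10.8 under satiety, a change of 1.20 ± 0.34 (edgeR adjusted p = 0.0130). sR9 stood at 27.5, 25.1 and 16.8 under deficit, against 12.4, 11.7 and 8.37 under satiety, a change of 1.10 ± 0.33 (edgeR adjusted p = 0.0178). Neither had overlapping libraries. Each call was lost without A17 root deficit replicate 1, A17 root satiety replicate 1 or A17 root satiety replicate 3, with edgeR adjusted p of 0.0623, 0.0737 and 0.0752 for sR5 and 0.0629, 0.0553 and 0.0902 for sR9. The changes in those fits stayed near their size, at 1.0 to 1.11 for sR5 and 1.0 to 1.18 for sR9.

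The near copy of sR9 showed no such difference. sR12 stood at 5.63, 11.8 and 13.6 normalised CPM in A17 roots under deficit, against 9.61, 11.7 and 11.4 under satiety, with overlapping libraries. Of the 17 sequences 13 had a positive change and 4 a negative one, with a median of 0.46, against a median near 0 over all 168. Libraries did not overlap for 8 of the 17, with 7 higher and 1 lower under deficit, where 44.6% of all sequences had no overlap. sR26 did not pass the filter in roots. It had 25 counts in A17 roots under deficit and 5 under satiety, at 6.25, 6.27 and 4.52 normalised CPM against 0.687, 1.30 and 1.20. In a fit without the filter its change was 2.33 ± 0.71 (edgeR adjusted p = 0.0139).

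In distant cra2 roots, sR2 and sR5 were higher and sR16 was lower under deficit. These 3 of 17 compare with 28.6% of all 168 called (13.7% higher and 14.9% lower). Of these 3, sR16 could be tested only by being high under satiety, since it passed the root filter through satiety libraries alone. sR2 stood at 96.3, 79.9 and 84.4 normalised CPM under deficit, against 52.6, 39.0 and 48.4 under satiety, a change of 0.89 ± 0.28 (edgeR adjusted p = 0.0195). sR5 stood at 37.7, 43.2 and 47.2 under deficit, against 21.8, 12.3 and 18.8 under satiety, a change of 1.26 ± 0.35 (edgeR adjusted p = 0.0110). The libraries did not overlap for sR2, sR5 and sR16, 3 of 17 where 41.1% of all sequences had no overlap. sR2 was lost without cra2 root deficit replicate 1 or 2 or cra2 root satiety replicate 2 (edgeR adjusted p = 0.0756, 0.0554 and 0.0628), and sR5 without cra2 root satiety replicate 2 (0.0578). Their changes were then 0.84 to 0.94 for sR2 and 1.12 for sR5.

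sR16 stood at 5.24, 5.70 and 3.31 normalised CPM in cra2 roots under deficit, against 13.8, 10.3 and 13.4 under satiety. Its change was -1.38 ± 0.52 (edgeR adjusted p = 0.0493) and is read with the limit of the filter. The call was lost in 6 of 6 fits with 1 library left out, where the change lay at -1.07 to -1.56 (edgeR adjusted p of 0.069 to 0.183). It was also lost with RLE scaling, library totals or DESeq2 (adjusted p = 0.0603, 0.169 and 0.0797). In a fit of the cra2 root libraries alone sR16 did not pass the filter and was not tested. sR18, which differs from it at the last base, stood at 5.24, 4.89 and 1.66 under deficit, against 13.8, 8.20 and 16.1 under satiety. sR18 was below the filter in roots, and without the filter its change was -1.60 ± 0.55 (edgeR adjusted p = 0.0365), while sR16 was then not called (0.0939). Both near-identical sequences had all deficit libraries below all satiety libraries in cra2 roots. In A17 roots the libraries of both overlapped: sR16 stood at 6.88, 3.14 and 6.46 under deficit, against 12.4, 3.90 and 13.2 under satiety, and sR18 at 7.51, 5.49 and 6.46 under deficit, against 2.75, 7.15 and 5.98 under satiety.

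**Figure D3:**
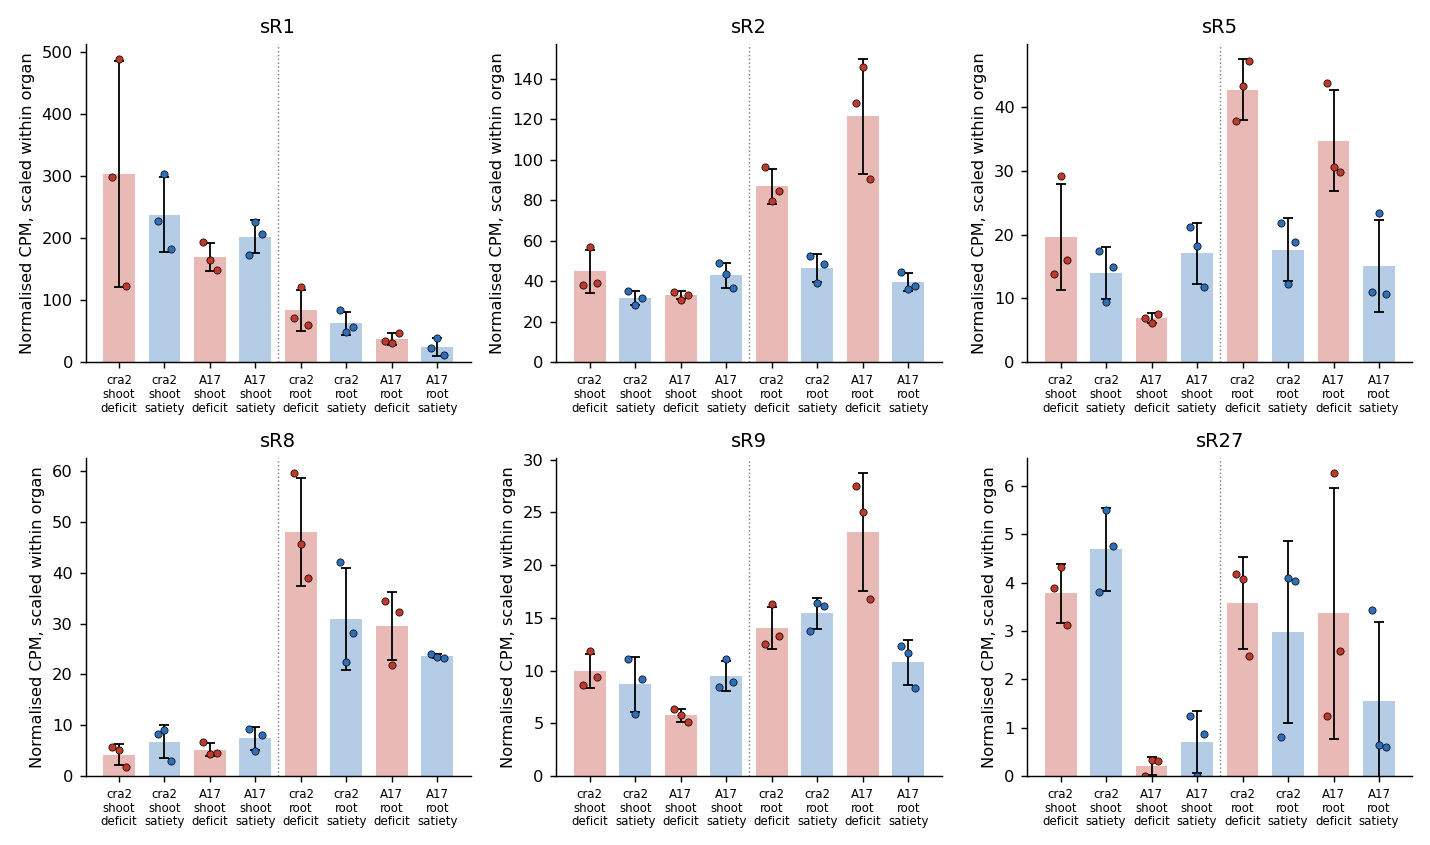
Normalised CPM of sR1, sR2, sR5, sR8, sR9 and sR27 in the 8 groups, scaled within each organ, so heights compare within shoots (left of the dotted line) or within roots (right of it). Points are libraries, bars are means and error bars are SD (n = 3), drawn down to 0 at most; sR2 and sR5 are higher under deficit in roots of both genotypes, and sR27 is near 0 in A17 shoots.

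In A17 shoots no 24-nt sequence was called among 25 by edgeR (0% of all 189), although 3 had an unadjusted p under 0.05 (62 of all 189) and DESeq2 called 1 (33 of all 189). sR5 had the smallest p. It stood at 6.997, 6.12 and 7.60 normalised CPM under deficit, against 21.2, 18.2 and 11.8 under satiety, without overlap and in the direction opposite to roots. Its change was -1.30 ± 0.37 (edgeR adjusted p = 0.0576), and over the 7 other settings its adjusted p ranged from 0.000951 to 0.114, with 3 of them calling it. sR9 stood at 6.36, 5.78 and 5.17 under deficit, against 8.41, 11.1 and 8.93 under satiety, a change of -0.71 ± 0.30 (edgeR adjusted p = 0.130). sR2 stood at 34.99, 30.9 and 33.4 under deficit, against 48.9, 43.5 and 36.6 under satiety, a change of -0.38 ± 0.28 that was not called (edgeR adjusted p = 0.349). Neither had overlapping libraries, and 5 of the 25 sequences had every deficit library below every satiety library, where 47.6% of all sequences had no overlap. Of the 25 sequences 17 had a negative and 8 a positive change, with a median of -0.38, against -0.19 over all 189. Fitting the 6 A17 shoot libraries alone gave 2 calls among 22 24-nt sequences, a smaller share than the 70 calls among all 175.

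In cra2 shoots no 24-nt sequence was called among 25 (0% of all 189), none had an unadjusted p under 0.05 (12 of all 189), and DESeq2 called 0 (0 of all 189). The smallest p was that of sR23, with 1.20, 1.18 and 2.68 normalised CPM under deficit, against 3.17, 5.52 and 2.72 under satiety (log2 -1.18, edgeR adjusted p = 0.572). sR5 stood at 13.8, 29.2 and 16.1 under deficit, against 17.4, 9.45 and 14.9 under satiety, with overlap. sR2 stood at 38.3, 57.2 and 39.3 under deficit, against 35.5, 28.4 and 31.9 under satiety, without overlap and with a change of 0.49 ± 0.28 that was not called (edgeR adjusted p = 0.572). sR2 and sR23 were the 2 of 25 without overlap, where 9.52% of all sequences had none.

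The difference between the organs was itself tested in A17, and 7 of 24 sequences had a lower response to deficit in shoots than in roots. Over all 200 sequences tested 27% were called, 18.5% in that direction and 8.5% in the other. The shoot response minus the root response was -2.11 ± 0.35 for sR2 (edgeR adjusted p = 0.000691), -2.62 ± 0.51 for sR5 (0.00106), -1.92 ± 0.40 for sR9 (0.00166) and -3.67 ± 0.99 for sR26 (0.00998). These 4 calls held whichever of the 12 A17 libraries was removed and under the 6 other settings. Their A17 libraries moved in opposite directions in the organs, with deficit below satiety on average in shoots and above it in roots. sR26 rests on few counts, with 9 under deficit and 23 under satiety in A17 shoots. A fit without the filter called 1 of the 32 24-nt sequences kept out by it, in the other direction. This was sR28, whose response was higher in shoots than in roots by 3.65 ± 1.1 (edgeR adjusted p = 0.0214). Its counts were also few, with 2 under deficit and 14 under satiety in A17 roots, and 31 and 19 in A17 shoots. That fit called 5 of 56 24-nt sequences and 48 of all 343.

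sR7, sR11 and sR14 were also called, at -1.25 ± 0.42, -1.47 ± 0.51 and -1.31 ± 0.47 (edgeR adjusted p = 0.0296, 0.0354 and 0.0378). These calls were less stable: RLE scaling ended all 3 calls (edgeR adjusted p = 0.0758, 0.0968 and 0.104), and they held in 6, 3 and 5 of 12 fits with 1 library left out (edgeR adjusted p up to 0.145, 0.167 and 0.201). sR7 was lost without any A17 root deficit library, A17 root satiety replicate 1 or 3, or A17 shoot deficit replicate 3, and sR14 without these or A17 shoot satiety replicate 1. sR11 was lost without any library of A17 root deficit, A17 root satiety replicate 1 or 3, A17 shoot deficit replicate 1 or 2, or A17 shoot satiety replicate 1 or 2. The median of the 24 sequences was -0.96, with 20 negative and 4 positive, against -0.31 over all 200. With RLE scaling the median over all was -0.01.

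In cra2 the same test called 0 of 24 (0.5% of all 200), with 2 at an unadjusted p under 0.05 (21 of all 200) and 0 called by DESeq2 (4 of all 200). The smallest p was that of sR18 (1.68 ± 0.70, edgeR adjusted p = 0.304). Whether the response differed between the genotypes was tested within each organ. In shoots 0 of 25 were called (0% of all 189), with 3 at an unadjusted p under 0.05 (51 of all 189) and 1 called by DESeq2 (23 of all 189). sR5 had the smallest p of the 24-nt sequences, with a cra2 response higher than the A17 response by 1.78 ± 0.51 (edgeR adjusted p = 0.0976). For sR2, whose libraries lay in opposite order in the shoots of the genotypes, the difference was 0.87 ± 0.40 (edgeR adjusted p = 0.184). In roots 0 of 17 were called (0% of all 168), with 2 at an unadjusted p under 0.05 (21 of all 168) and 0 called by DESeq2 (0 of all 168). The smallest p in roots was that of sR14 (-1.33 ± 0.53, edgeR adjusted p = 0.376). sR9, which was called in A17 roots and not in cra2 roots, had a difference of -1.22 ± 0.49 at the same adjusted p of 0.376, so the genotypes were not shown to differ for it.

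**Figure D4:**
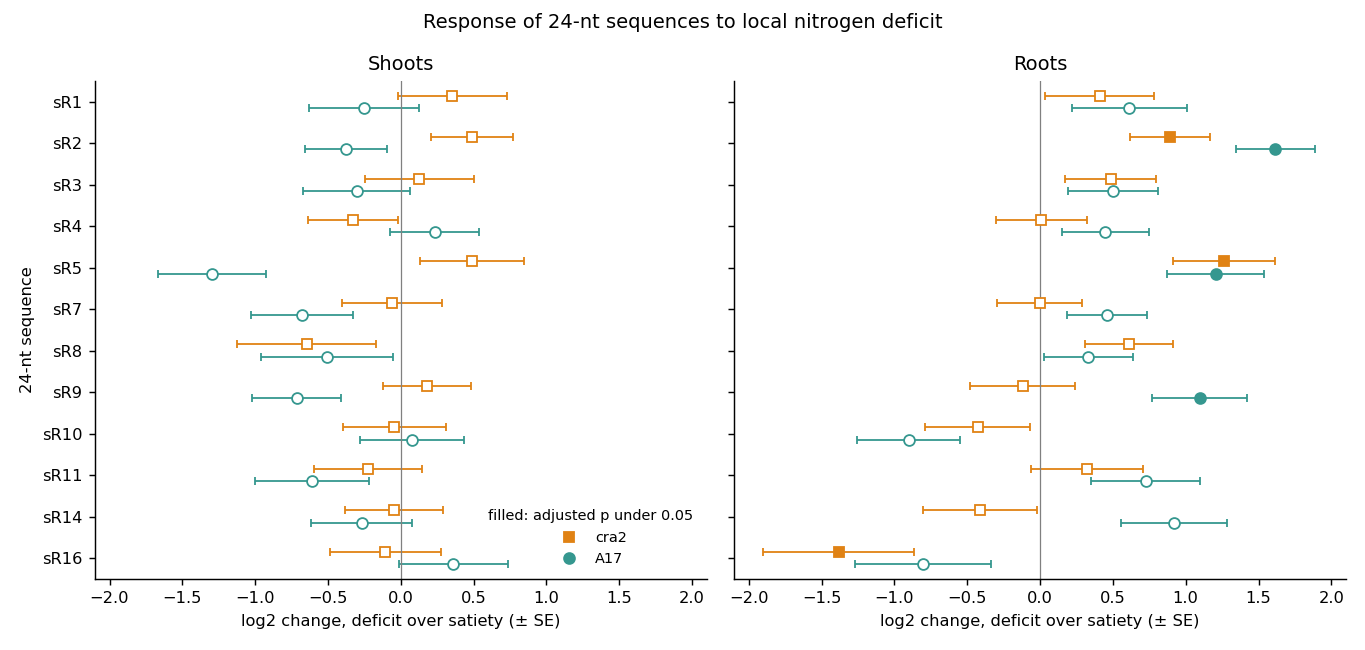
Log2 change ± SE of 12 24-nt sequences under local deficit over satiety in shoots (left) and roots (right), with cra2 as squares above A17 as circles and filled symbols for an edgeR adjusted p under 0.05. In A17, sR2, sR5 and sR9 lie left of 0 in shoots and right of 0 in roots. The filled symbols are sR2, sR5, sR9 and sR16 in roots, where sR16 passed the filter through satiety libraries alone.

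Between genotypes, sR27 lay higher in cra2 shoots. Under deficit it stood at 3.89, 4.34 and 3.13 normalised CPM in cra2 shoots, against 0, 0.340 and 0.304 in A17 shoots. Under satiety it stood at 3.80, 5.52 and 4.76 in cra2 shoots, against 1.25, 0 and 0.864 in A17 shoots. All 6 cra2 libraries lay above all 6 A17 libraries.

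The counts behind sR27 were low. Shoots gave 31 counts in cra2 and 2 in A17 under deficit, a ratio of counts per total of 25.2 (exact 95% counting interval 6.40 to 217). Under satiety they gave 40 counts in cra2 and 7 in A17, a ratio of 6.41 (2.84 to 16.9). sR27 passed the shoot filter through its cra2 counts alone, so it could be tested only by being high there, and in a fit of the shoot deficit libraries alone it did not pass. The fitted log2 differences, 3.91 ± 0.80 under deficit (edgeR adjusted p = 0.00907) and 2.66 ± 0.63 under satiety (edgeR adjusted p = 0.0229), are read with that limit. With 0 to 1 counts per A17 library, the size fitted under deficit also depends on the prior count. The satiety call was lost without A17 replicate 2 or 3 or any cra2 replicate (edgeR adjusted p = 0.0632 to 0.132). In roots sR27 was not tested, with 12 counts in cra2 and 14 in A17 under deficit (ratio 1.22, interval 0.517 to 2.85) and 8 in cra2 and 7 in A17 under satiety (ratio 1.71, interval 0.541 to 5.53).

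Besides sR27, sR5 was called between the genotypes in shoots under deficit, higher in cra2. That made 2 of 25 sequences, where 13.2% of all 189 were called (7.41% higher and 5.82% lower). Of these 2, sR27 could only be called higher, since it passed the filter through cra2 alone. Libraries did not overlap for 4 of the 25, where 29.6% of all had no overlap. sR5 stood at 13.8, 29.2 and 16.1 normalised CPM in cra2, against 6.997, 6.12 and 7.60 in A17, without overlap, a log2 difference of 1.5 ± 0.37 (edgeR adjusted p = 0.0193). It was lost without cra2 shoot deficit replicate 2 (0.109) and without A17 shoot deficit replicate 1, 2 or 3 (0.0661, 0.113 and 0.0658). The difference was 1.04 in the first of these fits and 1.39 to 1.62 in the others. Under satiety sR27 was the single call among 25, with the same limit. Of all 189, 6.88% were called (1.06% higher and 5.82% lower), and 7 of 25 had no overlap, against 32.3% of all. sR5 then overlapped between the genotypes, at 17.4, 9.45 and 14.9 in cra2 and 21.2, 18.2 and 11.8 in A17. The nitrogen and genotype comparisons of sR5 share the low A17 shoot deficit libraries.

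In distant roots sR1 was higher in cra2 under both supplies. Under deficit it stood at 71.2, 121 and 59.6 normalised CPM in cra2 roots, against 33.8, 30.6 and 47.8 in A17 roots, a log2 difference of 1.17 ± 0.38 (edgeR adjusted p = 0.0225). Under satiety it stood at 84.2, 48.2 and 56.4 in cra2 roots, against 22.7, 39.7 and 11.4 in A17 roots, a difference of 1.37 ± 0.39 (edgeR adjusted p = 0.0119). The genotypes did not overlap under either supply. sR1 was the 1 call among 17 in each comparison, where 32.7% of all 168 were called under deficit and 26.2% under satiety. Called higher were 11.9% under deficit and 8.93% under satiety, and called lower 20.8% and 17.3%. Libraries did not overlap for 6 of the 17 under deficit and 4 under satiety, where 45.8% and 39.9% of all had no overlap.

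The sR1 call in roots under deficit was lost without A17 replicate 1 or 2 or cra2 replicate 2 (edgeR adjusted p = 0.0835, 0.0792 and 0.170), and the satiety call without A17 replicate 1 or 3 or cra2 replicate 1 (0.0582, 0.0983 and 0.0652). The difference under deficit was 1.16 and 1.19 without the A17 libraries and 0.80 without the cra2 library, and under satiety it was 1.02 to 1.23. In shoots sR1 stood at 299, 489 and 124 normalised CPM in cra2 under deficit, against 195, 165 and 150 in A17, with overlap and a difference of 0.84 ± 0.38 (edgeR adjusted p = 0.136). sR8 stood at 59.7, 45.6 and 38.9 in cra2 roots under deficit, against 34.4, 21.95 and 32.3 in A17 roots, without overlap. Its difference was 0.69 ± 0.30 and was not called (edgeR adjusted p = 0.0807).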

How the data were processed

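Small RNA was sequenced from 24 libraries (NEXTFLEX kit, per the labels' protocols). Reads were processed with cutadapt, per the submitters' processing notes. Aligner, counter and list origin: not given in the sources used here. Deposited by the authors were whole-number counts per sequence, used unchanged. Members were all listed sequences of 24 nt, named by rank of summed counts. The members and lists were chosen with earlier results of these data known. Tests used edgeR 4.0.16 quasi-likelihood (robust), TMM scaling and filterByExpr (minimum count 10), on the whole table, with Benjamini-Hochberg adjustment over all sequences tested. Group means were fitted per organ (12 libraries each) or over all 24. Named sequences are the 5 most abundant per organ, those called, and the smallest p where none was. sR28 and sR38 are named for calls in fits without the filter. sR12, sR22, sR30, sR57 and other relatives illustrate relations and were chosen after their values were seen. Normalised CPM are counts over the effective library sizes of the same fits. Alternatives were RLE scaling, library totals, DESeq2 1.42.0, no filter, a replicate block, compared libraries only and each library left out; leaving out the cra2 deficit libraries, and the share without cra2 shoot deficit replicate 2 under 2 other totals, were added after seeing the data. The fits were tested on simulated data.

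Equal replicate numbers were checked by correlating residuals. All 3 correlations exceeded 0.1 between A17 root deficit and satiety (0.209, 0.136 and 0.349), where the block left the count at 3, and between A17 shoot and root deficit (0.306, 0.135 and 0.311).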

Additional observations from a re-analysis of the deposited data

Results flagged for a closer look

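The response of 7 of 24 tested 24-nt sequences to local deficit differed between the organs of A17 by an interaction test over all 24 libraries. Over all 200 sequences tested 27% were called, 18.5% in the same direction. The shoot response minus the root response was -2.11 for sR2, -2.62 for sR5, -1.92 for sR9, -3.67 for sR26, -1.25 for sR7, -1.47 for sR11 and -1.31 for sR14, on the log2 scale (edgeR adjusted p = 0.000691 to 0.0378). With RLE scaling 4 of these calls were made, where 57 of all 200 were called. In shoots, the deficit and satiety libraries of sR2 lay apart in opposite order in the genotypes, with a log2 change of 0.49 in cra2 and -0.38 in A17. The test of that difference gave 0.87 ± 0.40 (edgeR adjusted p = 0.184), which is not past the threshold, and adjusted p stayed between 0.101 and 0.337 over 5 other settings and between 0.0949 and 0.381 with a library left out.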

How the results depend on the processing

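Calls among 24-nt sequences with 1 library left out are given next, with calls over all sequences tested in brackets. Deficit gave 1 to 3 in A17 roots (16 to 46) and 1 to 5 in cra2 roots (25 to 50). For cra2 over A17, shoots gave 1 to 4 under deficit (7 to 65) and 0 to 1 under satiety (0 to 7). Roots gave 0 to 1 under deficit (37 to 53) and 0 to 2 under satiety (37 to 51). Shoot over root gave 5 to 9, against 6 (135 of 200) with all libraries. The organ difference of the A17 response gave 4 to 7 (36 to 62), and the genotype difference of the shoot response 0 to 1 (0 to 46). The other 4 comparisons stayed at 0 among 24-nt sequences. These fits tested 173 to 181 sequences in roots, 195 to 199 in shoots and 202 to 204 for the A17 organ difference. Brackets in the next sentences also give calls over all sequences tested. Deficit in A17 shoots gave 1 call with DESeq2 (33 of 189), 2 with only the compared libraries (70 of 175) and 1 without the cra2 shoot deficit libraries (65 of 181), against 0 of 189. The genotypes in shoots under deficit gave 5 calls with library totals (53 of 189) and 0 with only the compared libraries (6 of 165), against 2 (25 of 189), and in roots under deficit 2 with RLE and 2 with DESeq2 (59 of 168 each), against 1 (55 of 168). Shoot over root gave 19 calls with library totals (159 of 200), against 6 (135 of 200); there sR4 moved to -0.27 with the median of all sequences. The organ difference of the A17 response gave 4 calls with RLE (57 of 200) and 4 with DESeq2 (58 of 200), against 7 (54 of 200), and the genotype difference of the shoot response 1 with library totals (13 of 189) and 1 with DESeq2 (23 of 189), against 0 of 189. The whole-table count also moved with library totals in cra2 roots (30 of 168, against 48) and, for the genotypes in shoots under satiety, with only the compared libraries (28 of 174) or without the cra2 shoot deficit libraries (31 of 181), against 13 of 189. The cause was not tested.

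With the replicate block the calls were 3 in A17 roots (55 of all 168) and 3 in cra2 roots (47 of 168). The genotypes in shoots gave 2 under deficit (18 of 189) and 1 under satiety (10 of 189). In roots they gave 1 under deficit (56 of 168) and 1 under satiety (45 of 168). Between organs there were 6 (67 higher and 68 lower among 200), for the A17 organ difference 7 (60 of 200), and 0 elsewhere. The 24-nt counts were as without the block, while over all sequences the genotype calls in shoots were 25 and 13 without it.

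Summed shares with the most abundant sequence taken out of the total were 0.334% (cra2 shoot deficit), 0.280% (cra2 shoot satiety), 0.183% (A17 shoot deficit), 0.278% (A17 shoot satiety), 0.218% (cra2 root deficit), 0.156% (cra2 root satiety), 0.208% (A17 root deficit) and 0.129% (A17 root satiety). Without sR1, they were 0.0335% (cra2 shoot deficit), 0.0239% (cra2 shoot satiety), 0.0181% (A17 shoot deficit), 0.0235% (A17 shoot satiety), 0.0537% (cra2 root deficit), 0.0392% (cra2 root satiety), 0.0510% (A17 root deficit) and 0.0318% (A17 root satiety). Deficit minus satiety kept its sign under both in A17 shoots and in the roots of both genotypes. In cra2 shoots it rested on replicate 2 of deficit: without that library, in values added after seeing the data, deficit stood at 0.250% with the most abundant sequence taken out, below the 0.280% of satiety, and at 0.0245% without sR1, against 0.0239%. Shares with 1 library left out ranged from 0.0484 to 0.0980% (cra2 shoot deficit), 0.0422 to 0.0487% (cra2 shoot satiety), 0.0312 to 0.0356% (A17 shoot deficit), 0.0413 to 0.0451% (A17 shoot satiety), 0.0615 to 0.0664% (cra2 root deficit), 0.0384 to 0.0501% (cra2 root satiety), 0.0530 to 0.0571% (A17 root deficit) and 0.0335 to 0.0346% (A17 root satiety). The filter on low counts left 35 of the 60 sequences untested in shoots and 43 in roots.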
